A study of Mus musculus with 23 samples.

Results

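Nuclear receptors for steroids, vitamin D and oxysterols were examined in TM4 cells, an immortalized mouse Sertoli cell line, after exposure to 5 plasticizer compounds. Sertoli cells are the somatic cells of the seminiferous epithelium that nurse developing germ cells. The 9 genes were Esr1 and Esr2 (estrogen receptors alpha and beta), Pgr (progesterone receptor), Nr3c1 (glucocorticoid receptor), Nr3c2 (mineralocorticoid receptor), Vdr (vitamin D receptor), Nr1h3 and Nr1h2 (liver X receptors alpha and beta) and Nr1i2 (pregnane X receptor). They were chosen by name, with earlier results of these data known. Their probes were found through the RefSeq transcript that the array files list for each probe. This gave 14 of the 55681 non-control probes for these 9 of 20145 named genes.

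Cells were given 100 μM of one compound in 1% DMSO for 48 hr, or 1% DMSO alone as the vehicle. The compounds were mono(2-ethylhexyl) phthalate (MEHP, which the body forms from the phthalate plasticizer DEHP), diisononyl cyclohexane-1,2-dicarboxylate (DINCH, a commercial plasticizer), and the proposed plasticizers dioctyl maleate (DOM), 1,4-butanediol dibenzoate (BDB) and dioctyl succinate (DOS). DOM had been picked by the study as a compound predicted to be toxic. There were 4 biological replicates in each group and 3 for DOS, so that 23 arrays of Cy3-labelled RNA were available. TM4 is a single immortalized line grown alone, so germ cells and other testis cells could not contribute, and every group carried the vehicle.

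Steroid receptors are transcription factors held by chaperone proteins until a steroid binds, after which they pair up on response elements in DNA. The vitamin D, liver X and pregnane X receptors instead sit on DNA as partners of a retinoid X receptor (RXR) and answer to vitamin D, oxidised cholesterol, and bile acids or foreign compounds. In the testis, estrogen receptors are known from Sertoli, Leydig and germ cells, and estrogen receptor alpha drives the genes Pgr and Greb1 in other estrogen-responsive tissues. All values below are messenger RNA levels. Binding of a compound to a receptor was not measured.

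The stretch just before the transcription start is shown for the receptor genes that rose, Esr1 and Pgr, and for Greb1, a known estrogen target that rose with them. Sequences and coordinates are those of RefSeq on GRCm38.p6, each 250 bases long and written 5′ to 3′ on the strand of the gene. The Esr1 stretches lie at chr10:4611739-4611988 and, for a second start, at chr10:4709908-4710157, both on the plus strand. The Pgr stretch lies at chr9:8899583-8899832 on the plus strand and that of Greb1 at chr12:16800887-16801136 on the minus strand. Capitals mark a motif found by the search described next.
Esr1 first start: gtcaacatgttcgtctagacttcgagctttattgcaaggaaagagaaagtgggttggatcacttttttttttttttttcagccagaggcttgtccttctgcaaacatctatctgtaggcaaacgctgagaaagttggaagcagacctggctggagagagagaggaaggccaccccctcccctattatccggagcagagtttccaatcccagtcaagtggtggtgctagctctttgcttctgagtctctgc
Esr1 second start: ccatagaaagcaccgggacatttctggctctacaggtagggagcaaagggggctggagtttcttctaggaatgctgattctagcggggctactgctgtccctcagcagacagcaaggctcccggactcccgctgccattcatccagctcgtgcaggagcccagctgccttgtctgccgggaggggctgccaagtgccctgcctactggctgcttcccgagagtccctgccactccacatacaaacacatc
Pgr: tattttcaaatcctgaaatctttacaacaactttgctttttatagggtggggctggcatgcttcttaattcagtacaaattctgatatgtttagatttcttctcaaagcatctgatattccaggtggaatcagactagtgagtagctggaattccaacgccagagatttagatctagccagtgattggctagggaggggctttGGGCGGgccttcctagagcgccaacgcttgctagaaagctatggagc
Greb1: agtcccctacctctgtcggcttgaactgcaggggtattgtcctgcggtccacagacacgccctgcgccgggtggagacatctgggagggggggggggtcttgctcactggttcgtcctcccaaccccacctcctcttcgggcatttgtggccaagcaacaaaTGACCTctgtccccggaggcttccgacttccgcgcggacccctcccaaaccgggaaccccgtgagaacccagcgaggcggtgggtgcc

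A search on both strands used 5 motifs. These were the palindromic estrogen response element (GGTCA, then any 3 bases, then TGACC), its single arm AGGTCA, the glucocorticoid arm AGAACA, the GC box GGGCGG and the AP-1 site TGANTCA. Neither Esr1 stretch held any of them. The Pgr stretch held 1 GC box, 47 bases before the start, a motif present in 32.7% of 32851 promoter stretches of the same length. The Greb1 stretch held 1 AGGTCA arm on the opposite strand, 88 bases before the start, a motif present in 14% of all promoters. A second Greb1 start, at chr12:16757240-16757489, held none of the 5 motifs, with 46% GC and 2 CpG. The stretch of Cxcl12, a listed estrogen target that also rose under DOM, held 5 GC boxes. It held neither the palindrome nor its AGGTCA arm. The full palindrome was in none of the 8 receptor genes searched, which did not include Nr3c1, and in 0.0639% of all promoters. Vdr and Nr3c2 had 3 GC boxes each. Such a match only describes the letters in this window. The Esr1 stretches had 47.6% and 59.6% GC and 4 and 7 CpG, that of Pgr 43.6% and 4 CpG, and that of Greb1 65.2% and 16 CpG, where the median of all promoters was 52.4% GC.

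Detection was read from the scanner software, which marks a spot as well above background or not. Estrogen receptors alpha and beta, the glucocorticoid receptor, the progesterone receptor and liver X receptor beta were each well above background on all 23 arrays by their brightest probe, and the vitamin D receptor on 22 of 23. The remaining 3 receptors were near or below background. The mineralocorticoid receptor was above background on 3 of 23 arrays, liver X receptor alpha on 5 by its brightest probe and 4 by its other probe, and the pregnane X receptor on 0 of 23. A probe that was not well above background gives only an upper limit on the level, not absence of the transcript.

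**Figure D1:**
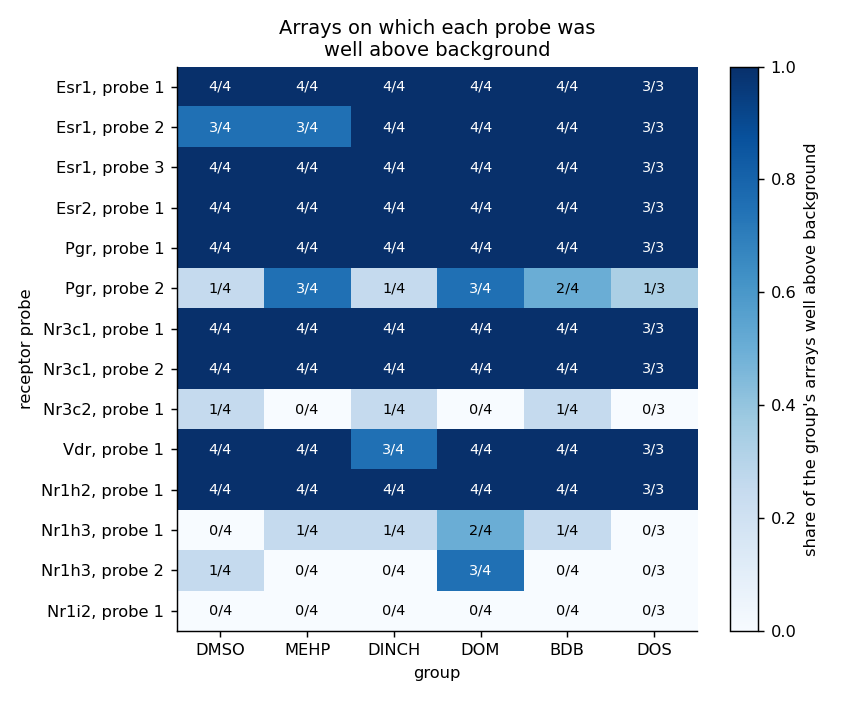
Number of arrays on which each of the 14 receptor probes was well above background (colour and digits), by treatment group with 4 arrays each and 3 for DOS. Nr1i2 had no such array in any group, and Nr3c2 and both Nr1h3 probes had at most 3 of 4 in any group.

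Levels are given on the log2 scale, as the log2 of the background-subtracted signal minus the log2 of that array's 75th percentile, so that 0 is the 75th percentile of the array. Signal also depends on the probe, and levels were therefore compared between groups for one probe, never between genes. A gene was counted as changed where limma's moderated test gave an adjusted p below 0.05, over all probes tested in that comparison, together with a fold above 1.5. Of the 9 receptors, 6 had probes bright enough to be tested. Every compound was compared with the same 4 DMSO arrays, so the comparisons share their controls.

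Estrogen receptor alpha rose under DOM. Its brightest probe read 0.21, 0.52, 0.77 and 0.30 in the DMSO arrays (mean 0.45 ± 0.25, SD, n = 4) and 1.48, 1.61, 1.54 and 1.78 in the DOM arrays (mean 1.60 ± 0.13, SD, n = 4). Each DOM array was above each DMSO array. The log2 fold change was 1.15 (SE 0.14, 95% interval 0.84 to 1.46), a 2.22-fold higher level, with adjusted p = 0.000586 by limma. In RNA from whole wells, more cells that express a gene and more of its RNA per cell cannot be told apart. The second probe was tested only because it was above background on all DOM arrays, so its values are a description. It read -4.64, -3.23, -3.29 and -3.44 with DMSO, the first of these not above background, and -2.37, -2.03, -2.19 and -2.04 with DOM. The log2 difference was 1.49. It was 0.46, short of a fold of 1.5, with normexp background correction, which adds 50 to every signal. The median signals of this probe were 23.6 with DMSO and 68.3 with DOM. An offset of that size shrinks the log2 differences of dim probes by itself, so this setting cannot decide on them. The third probe, above background on all 8 of these arrays, read -2.41, -1.69, -1.63 and -1.69 with DMSO and -0.75, -0.44, -0.51 and -0.51 with DOM, a log2 fold change of 1.30 (SE 0.18, limma adjusted p = 0.00098). On both dimmer probes DMSO replicate 1 was the lowest of the vehicle arrays by a wide gap. Without it the differences were 1.07, 1.16 and 1.12 for the 3 probes in this order. On the arrays with all quality measures in range, the second probe did not pass (limma adjusted p = 0.064).

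The progesterone receptor, whose gene is a known target of estrogen receptor alpha, also rose under DOM. Its brightest probe read -3.02, -2.03, -2.16 and -2.74 with DMSO (mean -2.49 ± 0.47, SD, n = 4) and -1.43, -1.34, -1.62 and -1.50 with DOM (mean -1.47 ± 0.12, SD, n = 4). All 4 DOM arrays lay above all 4 DMSO arrays, and the vehicle arrays were the more spread. The log2 fold change was 1.01 (SE 0.21, 95% interval 0.54 to 1.49), 2.02-fold, with limma adjusted p = 0.00681, and 0.84 without DMSO replicate 1. With another background correction (normexp on the raw signals) the change was 0.54, short of a fold of 1.5. The 50 that it adds is near the median signal of 49.2 with DMSO, so this setting cannot decide on the change. The second Pgr probe was above background on 1 of 4 DMSO arrays and 3 of 4 DOM arrays and could not be tested.

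The vitamin D receptor read -3.50, -3.32, -3.04 and -3.16 with DMSO and -2.92, -2.91, -2.61 and -2.45 with DOM. The groups did not overlap. The log2 difference of 0.53 (SE 0.15, 95% interval 0.21 to 0.86) had limma adjusted p = 0.0219 but was 1.45-fold, below the fold required. Quantile normalization, a slide term, or leaving out DMSO replicate 3, DOM replicate 1 or DOM replicate 2 carried it past that limit. With normexp background correction the difference was 0.19 (limma adjusted p = 0.281), the smallest of all alternatives. There the added 50 exceeded the median signals of 27.2 with DMSO and 46.8 with DOM, which shrinks the difference by itself. So 2 of the 6 receptors tested, Esr1 and Pgr, passed the test under DOM, where 20.5% of all 12005 genes tested did. The groups did not overlap for 3 of the 6, all higher, against 39.4% of all genes in either direction and 19% higher. The median log2 difference of the 6 was 0.38 and that of all genes -0.03.

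Not every receptor moved with Esr1. Estrogen receptor beta read 1.08, 1.09, 1.02 and 0.85 with DMSO and 0.90, 0.96, 0.85 and 0.71 with DOM, with the groups overlapping and a log2 difference of -0.15 (95% interval -0.38 to 0.07, limma adjusted p = 0.267). For the glucocorticoid receptor the brightest probe gave 0.22 (limma adjusted p = 0.134) and the other probe -0.09 (limma adjusted p = 0.64). Liver X receptor beta read 4.56, 4.59, 4.59 and 4.68 with DMSO and 4.57, 4.81, 4.60 and 4.77 with DOM, a difference of 0.08 (95% interval -0.13 to 0.30, limma adjusted p = 0.523). These intervals bound the size of any change but do not show its absence.

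**Figure D2:**
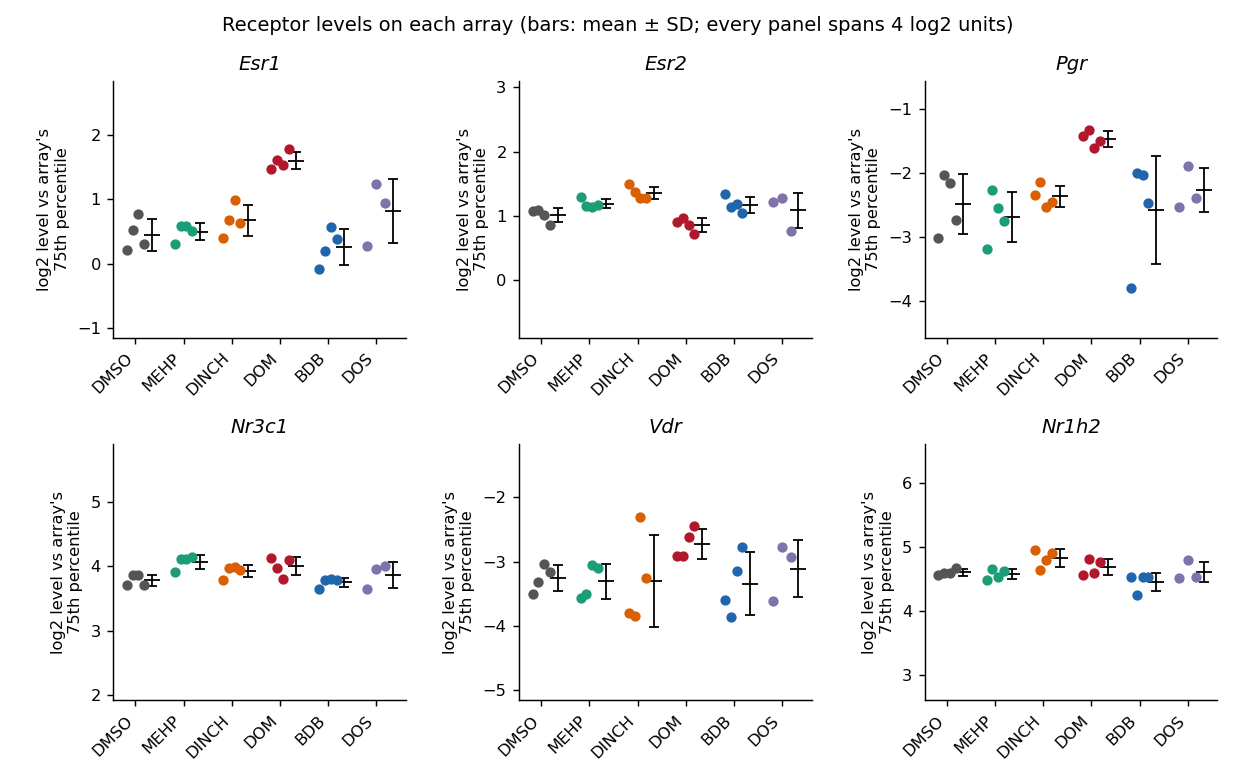
Log2 level relative to the array's 75th percentile for the brightest probe of the 6 tested receptors on each of the 23 arrays, by treatment group, with each point 1 array, bars at the group mean ± SD, and panels that span 4 log2 units each. The DOM points of Esr1 and Pgr lie above all DMSO points, with group means of 1.60 against 0.45 and -1.47 against -2.49.

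The arrays lay on 3 slides, each holding DMSO and DOM arrays. Within slides 1, 2 and 3 the DOM level of Esr1 exceeded that of DMSO by 1.34, 0.90 and 1.48 on the log2 scale. For Pgr the same differences were 1.64, 0.47 and 1.24, and for Vdr they were 0.59, 0.57 and 0.71. The direction was thus the same on every slide, with 1 or 2 arrays of each group per slide, while Pgr differed least on slide 2. DOM, DOS and DMSO arrays stood in the same slide rows, whereas the MEHP, DINCH and BDB arrays stood in other rows, and for those 3 compounds row and compound cannot be told apart.

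For MEHP, DINCH, BDB and DOS no receptor passed the test. MEHP changed 0 of the 6, where 1.68% of all genes tested changed. Estrogen receptor alpha read 0.30, 0.58, 0.59 and 0.51 with MEHP, within the range of the vehicle, with a log2 difference of 0.04 (95% interval -0.26 to 0.34, limma adjusted p = 0.906). Pgr differed by -0.20 (95% interval -0.79 to 0.39, limma adjusted p = 0.758). The glucocorticoid receptor read 3.71, 3.86, 3.86 and 3.71 with DMSO and 3.91, 4.12, 4.11 and 4.15 with MEHP. Here the groups did not overlap, yet the difference of 0.29 (95% interval 0.09 to 0.48) had limma adjusted p = 0.137, and the second probe gave 0.08. Estrogen receptor beta was higher on all MEHP arrays as well, at 1.29, 1.16, 1.14 and 1.17, by 0.18 (limma adjusted p = 0.34). Non-overlap upward was found for these 2 of 6 receptors and for 7.78% of all genes, 14.4% in either direction.

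DINCH likewise changed 0 of the 6, where 8.26% of all genes changed. Esr1 read 0.40, 0.68, 0.99 and 0.63 with DINCH, overlapping the vehicle, with a difference of 0.22 (95% interval -0.14 to 0.59, limma adjusted p = 0.431). Estrogen receptor beta read 1.49, 1.37, 1.28 and 1.28, above every DMSO array, by 0.35 (SE 0.10, 95% interval 0.12 to 0.57, limma adjusted p = 0.0564), or 1.27-fold. That was the 1 receptor of 6 without overlap, where 11.6% of all genes were higher without overlap and 24% did not overlap at all. Liver X receptor beta read 4.96, 4.64, 4.80 and 4.91, a difference of 0.22 (limma adjusted p = 0.196). The vitamin D receptor spread from -3.85 to -2.31 under DINCH and its replicate 1 was not above background, so its difference of -0.05 had a wide 95% interval of -0.74 to 0.65.

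Under BDB and DOS, limma called 0 of the 6 receptors, as it called 0% of all genes tested for each compound. Without adjustment, 3494 of 24291 probes had p below 0.05 for BDB and 1725 of 24209 for DOS. With BDB, Esr1 read -0.09, 0.20, 0.57 and 0.38, a difference of -0.19 (95% interval -0.56 to 0.19, limma adjusted p = 0.687), and Pgr spread from -3.80 to -2.01. Liver X receptor beta was lower on all BDB arrays, at 4.53, 4.25, 4.53 and 4.53, by -0.14 (limma adjusted p = 0.547), where 12% of all genes did not overlap. With DOS, Esr1 read 0.27, 1.24 and 0.94, a difference of 0.36 (95% interval -0.17 to 0.90, limma adjusted p = 0.824), and the lowest of these 3 arrays lay within the vehicle range while the others lay above it. No receptor was without overlap under DOS, against 8.14% of all genes. The median log2 difference of the 6 receptors was 0.01 for MEHP, 0.18 for DINCH, -0.09 for BDB and 0.12 for DOS, and that of all genes lay between -0.03 and 0.

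**Figure D3:**
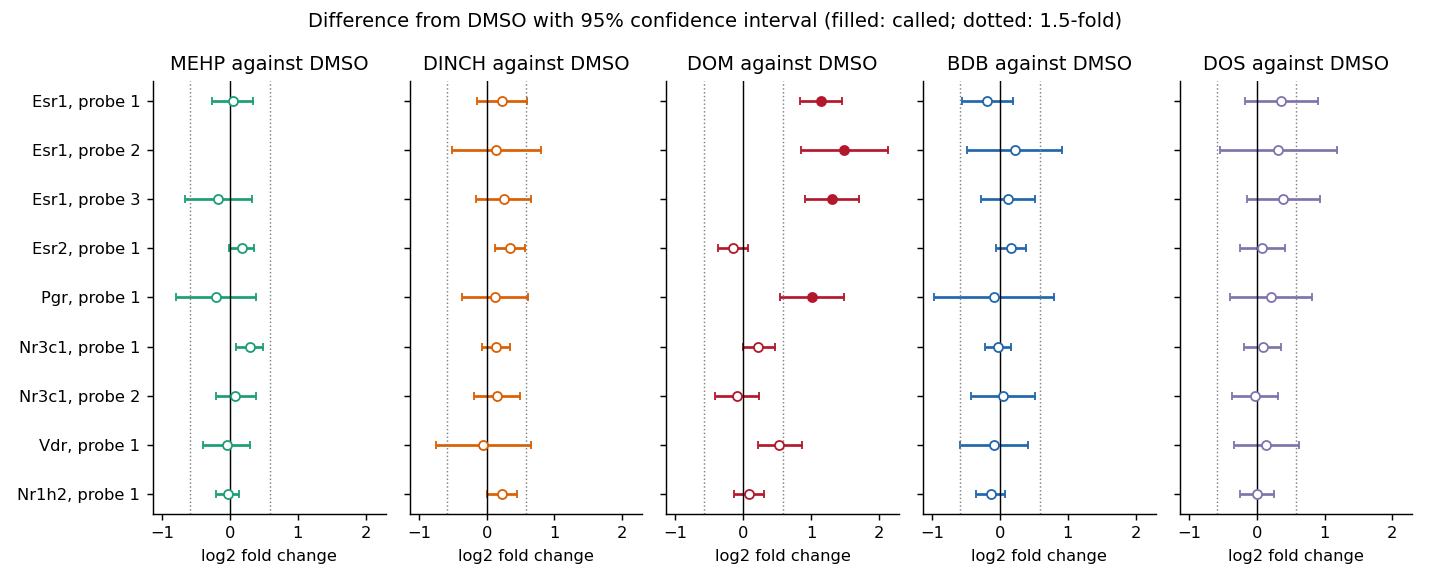
Log2 difference from DMSO with its 95% interval for each tested receptor probe and compound, where filled points passed limma's adjusted p below 0.05 with a fold above 1.5 and dotted lines mark that fold. Only the DOM points of Esr1 (1.15 by the brightest probe) and Pgr (1.01) are filled, and the Vdr interval under DOM runs from 0.21 to 0.86.

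The dim receptors are given by detection only, with no fold. Liver X receptor alpha was above background on 0 of 4 DMSO arrays and 2 of 4 DOM arrays by its brightest probe. The measured values overlapped, from -6.65 to -4.56 with DMSO and from -4.74 to -3.22 with DOM, and no DMSO value was well above background. The other Nr1h3 probe was above background on 1 of 4 DMSO and 3 of 4 DOM arrays. The mineralocorticoid receptor was above background on 1 of 4 DMSO arrays and on 0 of 4 DOM arrays. The pregnane X receptor was not well above background in any group.

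Setting the groups in order, Esr1 ran from DOM (1.60) through DOS (0.82), DINCH (0.67), MEHP (0.49) and DMSO (0.45) to BDB (0.27). Of these neighbours only DOM and DOS differed beyond their spread. The neighbouring compounds DOS and DINCH differed by 0.14 in size with limma adjusted p = 0.677, and DINCH and MEHP by 0.18 in size with limma adjusted p = 0.543. Pgr ran from DOM (-1.47) through DOS (-2.27), DINCH (-2.37), DMSO (-2.49) and BDB (-2.58) to MEHP (-2.69), and no 2 neighbours differed by the test.

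The 5 compounds were next set against each other at the same dose and time, which made 10 pairs fitted in 1 model. Esr1 was higher under DOM than under each other compound. It was lower by -1.11 under MEHP than under DOM (95% interval -1.48 to -0.74, limma adjusted p = 0.000128) and lower by -0.93 under DINCH (95% interval -1.30 to -0.56, limma adjusted p = 0.00073). Against BDB the DOM level was higher by 1.34 (95% interval 0.97 to 1.71, limma adjusted p = 1.64e-05). The brightest and the third Esr1 probe passed in each of the 4 pairs with DOM, and so did the second. That second probe was above background on 3 of 4 MEHP arrays. Against MEHP it was tested only through the DOM arrays, so that pass is a description. On the arrays in range the brightest probe gave -0.74 for DINCH against DOM and did not pass (limma adjusted p = 0.0725). Pgr passed in 3 of these pairs. It was lower by -1.22 under MEHP than under DOM (limma adjusted p = 0.00642), lower by -0.89 under DINCH (limma adjusted p = 0.0415) and higher by 1.1 under DOM than under BDB (limma adjusted p = 0.0126). The Pgr difference between DINCH and DOM was near the threshold, and other settings gave adjusted p from 0.0013 to 0.179. The Pgr difference between DOM and BDB did not pass where this pair was fitted alone or on the arrays in range (limma adjusted p = 0.0698). Nor did it pass with normexp background correction, where it was 0.55 and the added 50 shrinks the differences of dim probes. These 7 calls were all among the 4 pairs with DOM.

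DOM and DOS are both dioctyl diesters, and DOM has a carbon-carbon double bond in its diacid core where DOS has a single bond. Esr1 read 1.48, 1.61, 1.54 and 1.78 with DOM and 0.27, 1.24 and 0.94 with DOS, with no overlap. The difference was 0.79 on the log2 scale (95% interval 0.39 to 1.19, limma adjusted p = 0.00566) by the brightest probe and 1.17 and 0.91 by the others. One array weighs on it, since without DOS replicate 1 the brightest probe gave 0.52 and did not pass. Pgr differed by 0.80 in the same direction (95% interval 0.12 to 1.48) with limma adjusted p = 0.0942, so a difference was not shown, and the interval also does not show that the compounds act alike. This Pgr difference passed with quantile normalization, with a replicate term and where DOM and DOS were fitted alone. Vdr differed by 0.39 (95% interval -0.25 to 1.03, limma adjusted p = 0.429) and Esr2 by -0.23 (95% interval -0.46 to 0, limma adjusted p = 0.151).

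In the pairs with DOM, 2 receptors passed against MEHP, DINCH and BDB and 1 against DOS. The shares of all genes that passed were 19% for MEHP and DOM, 23.1% for DINCH and DOM, 26.4% for DOM and BDB, and 15.7% for DOM and DOS. In the 6 pairs without DOM no receptor passed. The shares of all genes there were 3.76% for MEHP and DINCH, 3.01% for MEHP and BDB, 1.57% for MEHP and DOS, 10.3% for DINCH and BDB, 7.08% for DINCH and DOS, and 2.12% for BDB and DOS. Some smaller differences had an adjusted p below 0.05 without the fold. Esr2 was 0.50 higher under DINCH than under DOM (limma adjusted p = 0.00123), 0.33 higher under MEHP than under DOM (limma adjusted p = 0.0248) and -0.32 lower under DOM than under BDB (limma adjusted p = 0.0313). Nr1h2 was 0.37 higher under DINCH than under BDB (limma adjusted p = 0.00673), Nr3c1 0.32 higher under MEHP than under BDB (limma adjusted p = 0.0194), and Esr1 -0.55 lower under BDB than under DOS (limma adjusted p = 0.0495). Estrogen receptors alpha and beta thus stood in opposite order between DINCH and DOM, Esr1 lower and Esr2 higher with DINCH.

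Genes known to respond to these receptors, to hold them or to supply their ligands were listed in 9 groups, 115 of the 118 genes having a probe. Under DOM 13 of the 63 tested changed, 8 higher and 5 lower, against 20.5% of all genes. Under DINCH 9 of 63 changed, 4 higher and 5 lower, against 8.26%, with Wnt4 among the 9 tested only through the group where it was high, and under MEHP 3 of 64, all higher, against 1.68%. Limma called 0 of 64 under BDB and 0 of 63 under DOS. The share called in the lists was thus at the background for DOM, BDB and DOS, and for DINCH and MEHP it was above it but rests on few genes. The lists were chosen with earlier results of these data known, so these shares are a description.

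Among targets of the estrogen and progesterone receptors, 3 of 7 tested genes changed under DOM, 2 higher and 1 lower, against 20.5% of all genes. The median difference of the 7 was -0.07. Greb1, a coactivator of estrogen receptor alpha and one of its best known targets, read 2.93, 3.63, 3.98 and 3.75 with DMSO and 4.28, 4.83, 4.77 and 4.61 with DOM, without overlap. It rose by 1.05 (SE 0.22, limma adjusted p = 0.00723) and by 1.07 on its second probe. Cxcl12, a chemokine, read 1.39, 2.87, 3.08 and 2.86 with DMSO and 3.40, 4.76, 4.74 and 4.12 with DOM, and rose by 1.70 (SE 0.41, limma adjusted p = 0.0135) and by 1.27 on its second probe (limma adjusted p = 0.0459). Fst, the activin-binding protein follistatin, read 1.24, 0.14, 0.16 and -0.78 with DMSO and -0.51, -1.72, -1.64 and -2.07 with DOM. Its groups overlapped, and it fell by 1.67 (SE 0.44, limma adjusted p = 0.0185), a call lost when DOM replicate 2 or 4 was left out (-2.00 to -1.19 over all alternatives). Without DMSO replicate 1, the lowest vehicle array for Greb1 and Cxcl12, these rose by 0.84 and 1.32 and still passed. Both calls were lost on the arrays in range, and that of Cxcl12 also without a filter on dim probes. The highest limma adjusted p over all alternatives was 0.0809 for Greb1 and 0.113 for Cxcl12. The change of Greb1 within slides 1, 2 and 3 was 1.63, 0.97 and 0.86 and that of Cxcl12 2.69, 1.77 and 1.26.

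**Figure D4:**
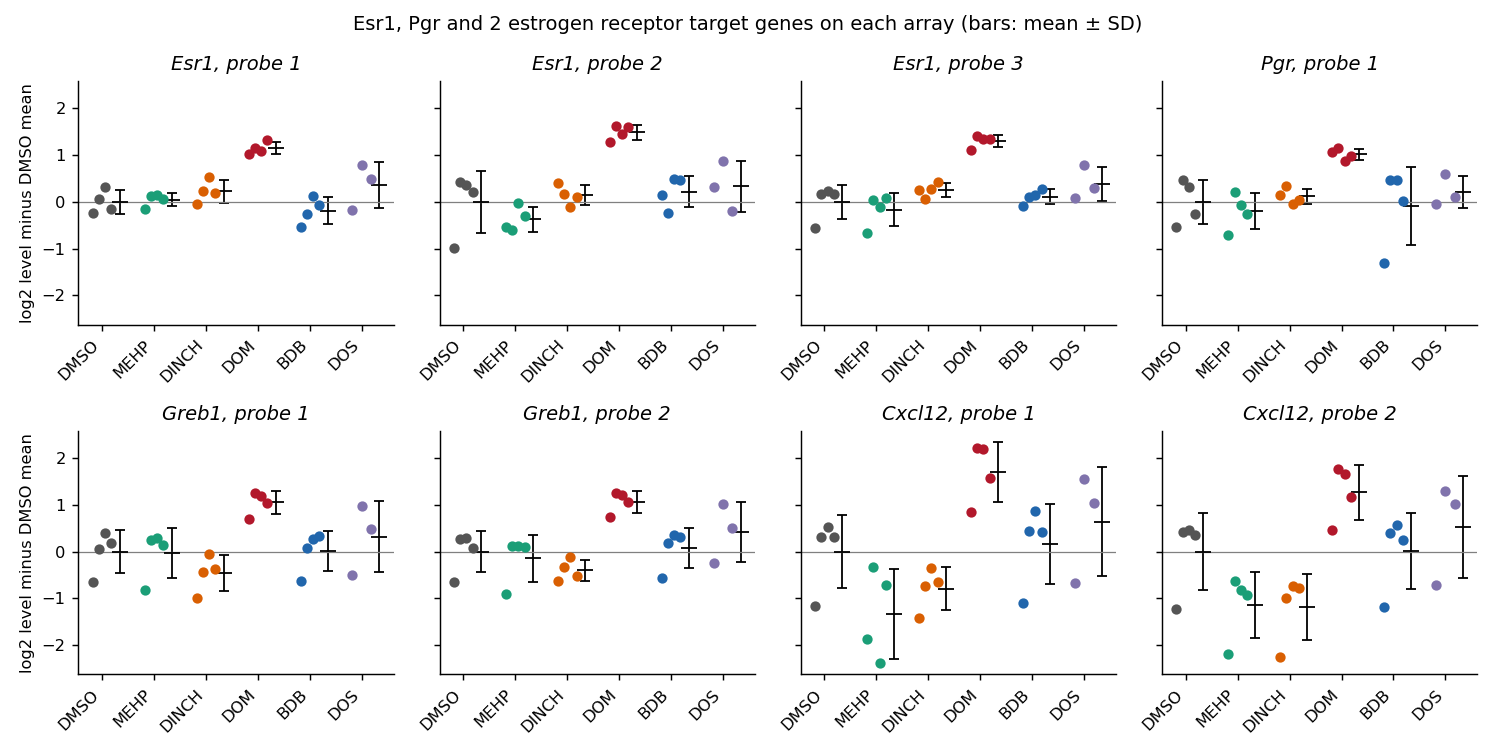
Log2 level minus the mean of the DMSO arrays for all 3 probes of Esr1, the brightest of Pgr and both probes of Greb1 and Cxcl12, on each of the 23 arrays by treatment group, with bars at the group mean ± SD. By the brightest probes the DOM arrays lie above all DMSO arrays, by 1.15, 1.01, 1.05 and 1.70 in the mean, and on the second Cxcl12 probe the lowest DOM array meets the DMSO arrays. Only targets that rose are drawn. Fst, which was called lower (-1.67), and the targets not called are left out, and the median of the 7 tested targets was -0.07.

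The same list moved otherwise under DINCH, where 2 of 8 tested genes passed, against 8.26% of all genes. One of them, Wnt4, a secreted signal downstream of the progesterone receptor, was above background on 2 of 4 DMSO and 4 of 4 DINCH arrays and was tested only through the higher group, so its pass is no support for a change. Its measured difference was 1.24. It was 0.42 with normexp background correction, whose added 50 shrinks the differences of dim probes. The call was also lost without a filter on dim probes and on the arrays in range. Igfbp4, a binding protein of insulin-like growth factors, fell by 0.88 (SE 0.16, limma adjusted p = 0.0123). Greb1 read 2.59, 3.13, 3.53 and 3.20 with DINCH, a difference of -0.46 (limma adjusted p = 0.293). Under MEHP none of the 7 tested genes of the list passed, and Greb1 differed by -0.03 (limma adjusted p = 0.967).

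Glucocorticoid receptor targets were mixed. Of 11 tested, 2 were called under DOM, 3 under DINCH and 1 under MEHP, where 20.5%, 8.26% and 1.68% of all genes were. Fkbp5, a cochaperone of the receptor, read 2.98, 2.89, 3.06 and 2.94 with DMSO and 3.10, 2.84, 2.97 and 3.0 with DOM, a difference of 0.01 (limma adjusted p = 0.958). Tsc22d3, the glucocorticoid-induced leucine zipper, differed by 0.02 under DOM (limma adjusted p = 0.914), by 0.33 under DINCH (limma adjusted p = 0.0559) and by 0.60 under BDB (limma adjusted p = 0.113). The 2 of 11 tested genes that rose under DOM were Sgk1, a kinase that is also a mineralocorticoid target, by 0.77 (SE 0.14, limma adjusted p = 0.00327), and Nfkbia, the NF-kappa-B inhibitor, by 0.63 (limma adjusted p = 0.0234). Nfkbia gave 0.48 without DMSO replicate 1, below the fold required, and its call was also lost without DOM replicate 2 or 4 (0.48 to 0.72 over all alternatives). Per1, a clock gene with a glucocorticoid response element, read 2.08, 2.21, 2.39 and 2.52 with DMSO, 3.73, 3.20, 3.37 and 3.60 with DINCH and 3.01, 3.05, 2.96 and 3.21 with MEHP. It rose under DINCH by 1.18 (SE 0.15, limma adjusted p = 0.00363) and under MEHP by 0.76 (SE 0.11, limma adjusted p = 0.0163), and differed by 0.43 under DOM (limma adjusted p = 0.124). Ddit4, an inhibitor of mTOR signalling, and Errfi1, an inhibitor of the EGF receptor, fell under DINCH by 0.60 and 0.62. The Per1 call under MEHP was lost without MEHP replicate 2 or 4 (range over all alternatives 0.68 to 0.86), and those of Ddit4 (-0.70 to -0.49) and Errfi1 (-0.73 to -0.39) were lost without any of several arrays, DMSO replicates 1, 2, 3 and 4 and DINCH replicate 1 among them.

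Of the 3 mineralocorticoid targets tested under DOM, Sgk1 alone passed, where 20.5% of all genes did. Scnn1a, a subunit of the epithelial sodium channel, was above background on 20 of 23 arrays and differed by 0.75 under DOM (limma adjusted p = 0.0608). It was tested only through the DOM arrays, the higher group, because the DMSO arrays did not all pass the filter. Its values are therefore a description.

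Liver X receptor targets included the lipid enzymes that rose under both DOM and MEHP, each a change in 2 of 7 tested genes. The shares of all genes called were 20.5% for DOM and 1.68% for MEHP. Lpcat3, which loads polyunsaturated fatty acids onto phospholipids, read 2.75, 2.56, 2.68 and 2.57 with DMSO, 3.60, 3.53, 3.53 and 3.47 with DOM and 3.30, 3.37, 3.44 and 3.32 with MEHP. It rose by 0.89 under DOM (SE 0.09, limma adjusted p = 0.000318) and by 0.72 under MEHP (SE 0.08, limma adjusted p = 0.00748), and differed by -0.26 under DINCH (limma adjusted p = 0.109). Scd1, the stearoyl-CoA desaturase, rose by 0.94 under DOM (SE 0.17, limma adjusted p = 0.00384) and by 0.88 under MEHP (limma adjusted p = 0.0356). Under DINCH, Pltp, a phospholipid transfer protein, rose by 0.63 and Lpl, the lipoprotein lipase, fell by 1.06. The cholesterol exporters Abca1 and Abcg1, the defining targets of these receptors, were above background on 0 of 23 arrays each, and Srebf1, the lipogenic factor, differed by 0.19 under DOM (limma adjusted p = 0.175). The Scd1 call under MEHP held in 10 of 20 other settings (0.77 to 1.03) and was lost without any 1 of the MEHP arrays or of DMSO replicates 2, 3 and 4. The Pltp call (0.51 to 0.73) also held in 10 and was lost without DMSO replicate 1, 2 or 3 or DINCH replicate 1, 2 or 4. The median of the list was 0.19 under DOM and 0.37 under MEHP.

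For the vitamin D receptor, Cyp24a1, the enzyme that breaks down its ligand, was above background on 0 of 23 arrays. Spp1, the secreted phosphoprotein osteopontin, was the 1 of 5 tested targets that changed under DOM, where 20.5% of all genes did. It read 2.53, 1.66, 1.52 and 1.57 with DMSO and -0.07, 0.08, 0.48 and -0.66 with DOM, and fell by 1.86 (SE 0.28, limma adjusted p = 0.00161), the opposite of the direction in which the vitamin D receptor is known to drive it. For the pregnane X receptor, Cyp3a11, a cytochrome P450 that it induces in liver, was above background on 2 of 23 arrays by 1 probe and 0 by another. Abcb1b, a drug export pump, was the 1 target tested under DOM and fell by 1.66 (SE 0.20, limma adjusted p = 0.000572). Esr1, Spp1 and Rxra had been singled out by the study from these same arrays, so their presence here is not independent evidence. The study also listed Ncor1, a coregulator, as higher and Bglap, a vitamin D receptor target, as lower under DOM. Neither passed here, and the cause of that difference was not tested.

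Of the 13 receptor chaperones tested, 3 changed under DOM, where 20.5% of all genes did. Ppp5c, a phosphatase bound to steroid receptor complexes, fell by 0.74 (limma adjusted p = 0.00357). Ppid, the cyclophilin 40 cochaperone, fell by 0.82 and 0.71 on 2 of its probes, while its brightest gave -0.52, below the fold. The probes of Hspa4, a nucleotide exchange factor for Hsp70, disagreed, with 0.94 and 1.05 on 2 dimmer probes and -0.25 on the brightest (limma adjusted p = 0.0735). A dimmer Hspa4 probe was also called lower under DINCH, by -0.92 (limma adjusted p = 0.0498). H6pd, which supplies the cofactor for the enzyme that activates glucocorticoids, was the 1 of 6 tested ligand enzymes that changed under DOM, rising by 0.59 (limma adjusted p = 0.00622) and reaching 0.55 without DMSO replicate 1, below the fold. Its call was also lost without DMSO replicate 2 or DOM replicate 2 or 4, with 0.52 to 0.66 over all alternatives. Among RXR partners and coregulators 0 of 13 passed under DOM by limma. Rxra, the shared partner of the vitamin D, liver X and pregnane X receptors, read -1.1, -1.32, -1.26 and -1.01 with DMSO and 0.06, -0.31, -0.42 and -0.32 with DINCH. It rose by 0.92 (SE 0.13, limma adjusted p = 0.00537) on the brightest probe, but its other probe gave -0.15 (limma adjusted p = 0.664).

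**Figure D5:**
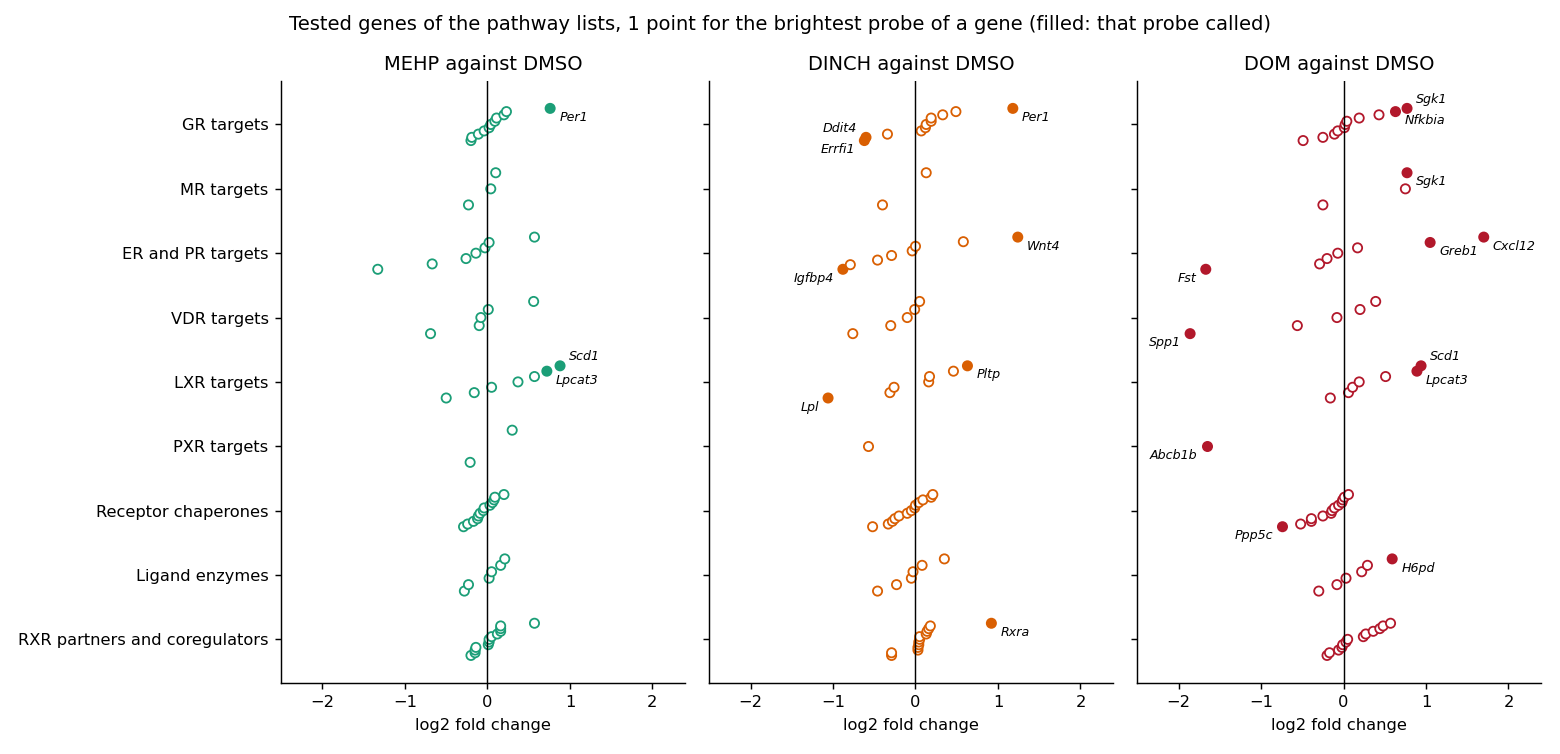
Log2 difference from DMSO of the tested genes in the 9 lists of targets, chaperones, ligand enzymes and RXR partners under MEHP, DINCH and DOM, 1 point for the brightest probe of a gene in each list that holds it, filled where that probe passed limma's adjusted p below 0.05 with a fold above 1.5. Filled points lie on both sides of 0 for DINCH and DOM, while Ppid and Hspa4, called on dimmer probes alone, are open.

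The genes whose level over the 23 arrays was most like that of each receptor were taken from 11157 genes above background throughout. For Esr1 these were Slc4a3, an anion exchanger (Pearson r 0.96), C1rl, a complement-related protease (0.95), and Hoxa11, a homeobox factor (0.94). For Pgr they were Tspan13 (0.87), C1rl (0.87) and Pi15 (0.86), so that C1rl appeared for both. For Esr2 they were Nus1, Smco4 and 1110017D15Rik (0.87 each), for Nr3c1 Acadvl (0.82), Fam117b (0.81) and Hoxc4 (0.79), and for Nr1h2 Tmem214 (0.88), Dnajc4 (0.86) and Edem1 (0.86). These correlations are descriptions over arrays that share treatment groups and slides.

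The Sertoli label was checked against 12 marker genes. Of these, 6 were above background on all 4 DMSO arrays (Sox9, Gata4, Dhh, Inha, Inhbb and Kitl). Wt1, Fshr, the receptor for follicle-stimulating hormone, and Cldn11 were above background on none of the 23 arrays. Amh and Trf were on 1 of 23 each, and Clu on 12. Of the 4 fibroblast markers, Pdgfra, Col1a1 and Dcn were above background on all 23 arrays and Thy1 on 3. Under DOM, where Esr1 and Pgr rose, Inhbb and Inha, which encode inhibin subunits, rose by 1.61 and 1.05 and Sox9 fell by 0.92. The summed linear level of the 12 markers, in multiples of each array's 75th percentile, was 13.8 to 27.5 with DMSO and 42.7 to 68.3 with DOM. It was 12.4 to 21.7 with MEHP, 13.6 to 19.1 with DINCH, 14.1 to 30.6 with BDB and 17.6 to 37.5 with DOS. These sums are mostly Inhbb, at a mean log2 level of 4.11 with DMSO. The median log2 difference of the 6 Sertoli markers tested under DOM was 0.05, with 3 of 6 above 0. The summed fibroblast markers were 120 to 178 with DMSO and 133 to 185 with DOM, and the Leydig cell markers 10.2 to 21.4 and 8.28 to 12.1. They too are mostly single genes, Col1a1 and Cyp17a1, at mean log2 levels of 7.08 and 3.68 with DMSO. Cyp11a1, Hsd3b1 and Lhcgr were above background on none of the 23 arrays. The peritubular myoid cell markers summed to 30.3 to 38.7 with DMSO and 36.5 to 48.9 with DOM. For the macrophage markers the sums were 2.58 to 5.27 and 3.07 to 3.41. Acta2, Cnn1 and Csf1r of these lists were above background on all 23 arrays. Of the germ cell markers, 3 of 4 were on none of the arrays. The part of these shifts in the receptor results was not tested.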

How the data were processed

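RNA of 23 TM4 samples, Cy3-labelled, was hybridised by the authors to Agilent 1-colour mouse arrays of 62976 spots, 55681 distinct non-control probes of which 26582 were named here through RefSeq accessions (20145 genes). The deposited scanner files hold a processed intensity per spot, background-subtracted by Feature Extraction on a linear scale, and the authors also deposited a log2 table, scaled to the 75th percentile of the array and then centred at the median of each probe, used here only as an alternative (its columns correlated with their own arrays at 0.9996 or more). One further DOS replicate was left out by the authors for high background. Samples were grouped by the compound in their titles. Between 43.4% and 52.18% of spots per array were well above background, the 75th percentile of the signal was 204.6 to 350.7, and 15 of the 23 arrays had every quality measure of the scanner software in range. Precision is limited by the number of arrays. No per-sample column was set aside.

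Here the intensity was raised to at least 1, transformed to log2 and centred on the array's 75th percentile. Control spots and outlier spots were dropped and spots of a probe averaged. Probes were kept where they exceeded the 20th percentile and were well above background on all arrays of at least 1 group compared. Each compound was fitted with DMSO alone, as in the authors' methods, by lmFit and eBayes of limma 3.58.1 in R 4.3.3, with Benjamini-Hochberg adjustment over all probes, and a gene was called where any probe had an adjusted p below 0.05 with a fold above 1.5. The 10 pairs of compounds were fitted in 1 model of all groups. The methods were tested on simulated data. Figures were drawn with matplotlib 3.10.9. Of the 9 receptors every probe is reported, the brightest as the gene's value. Of the 9 lists, every gene called for any compound and the best known targets of each receptor are named, and for each receptor above background on all arrays the 3 genes most like it. Members and lists were chosen with earlier results of these data known.

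Replicate numbers are shared by the groups. Arrays of the same number deviated together from their groups' means, with correlations of 0.169 to 0.496 for DINCH, 0.255 to 0.434 for BDB and 0.199 to 0.452 for DOS, and these numbers were taken to pair the arrays, a pairing read from the values. The reported tests carry no replicate term, and a fit with it as a block was run as an alternative. For MEHP (-0.14 to 0.454) and DOM (0.0384 to 0.431) the numbers were not taken to pair the arrays, because replicate 2 fell below the 0.1 required. The other DOM correlations, 0.249 to 0.431, were like those of the paired compounds. Most arrays of the same number also shared a slide, so slide and pairing cannot be told apart. Alternatives to the background correction, scaling, filter, model and arrays used are given in the closing section.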

Additional observations from a re-analysis of the deposited data

Results flagged for a closer look

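Single arrays lay apart from the rest of their group for 5 of the 45 groups of 4 receptor values examined, where chance alone marks about 1 in 20. DMSO replicate 1 was low for Esr1 on the second probe (-4.64, nearest -3.44) and on the third (-2.41, nearest -1.69). For Nr3c1, replicate 1 was low under MEHP (3.91, nearest 4.11) and under BDB (3.65, nearest 3.78), and for Nr1h2 BDB replicate 2 was low (4.25, nearest 4.53).

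The level of a receptor differed between compounds, by a test of the difference itself, in 7 cases, all with DOM as one of the pair. For Esr1 the differences on the log2 scale were -1.11 for MEHP minus DOM, -0.93 for DINCH minus DOM, 1.34 for DOM minus BDB and 0.79 for DOM minus DOS. For Pgr they were -1.22 for MEHP minus DOM, -0.89 for DINCH minus DOM and 1.1 for DOM minus BDB.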

How the results depend on the processing

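No result changed direction while called. The brightest Esr1 probe passed under DOM in 20 of 20 alternatives (log2 difference 1.03 to 1.26) and Pgr in 18 (0.54 to 1.17). For MEHP, DINCH, BDB and DOS, 0 receptors passed limma's test in every alternative. Under DOM the 2 receptors became 1, Esr1 alone, with normexp background correction, whose added 50 shrinks the differences of dim probes. They likewise became 1 on the arrays with all measures in range, a setting chosen after seeing the data. That setting keeps 2 DOM arrays, and Pgr gave 1.02 there with limma adjusted p = 0.0703. The count was 3, with Vdr, under quantile normalization or a slide term, and 2 to 3 when single replicates were left out. The 7 pair calls became 4, all Esr1, on the arrays in range, the one for DINCH and DOM not through the brightest probe, and were 6 to 9 without single replicates.

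The lists depended more on the settings. MEHP's 3 genes became 6 with quantile normalization, 0 without a filter on dim probes, 1 with detection on 1 array, 5 with a slide term and 1 on the arrays in range, and 1 to 5 without single replicates (5 without DMSO replicate 1, 1 without MEHP replicate 2 or 4). Over all genes, MEHP's 201 calls became 209, 3, 98, 213 and 68 in these settings, and 88 to 237 without single replicates. DINCH's 9 became 1 without the filter, 5 with detection on 1 array, 14 with a slide term, 0 on the arrays in range and 5 to 8 without single replicates (5 without DINCH replicate 1 or DMSO replicate 3). Over all genes, DINCH's 984 calls became 97, 609, 1134 and 3 in these settings, and 571 to 1055 without single replicates. BDB's 0 became 1 with a slide term, 2 with all 6 groups in 1 fit and 1 with a variance trend, where BDB's calls over all genes went from 0 to 100, 120 and 82. DOM's 13 ranged from 10 to 16 without single replicates, where DOM's 2463 calls over all genes ranged from 2176 to 2641. The cause of these shifts was not tested. With the replicate number as a block, the pairing changed no receptor call against DMSO, MEHP's list count was 5 (3 higher, 2 lower), DINCH's was 11 and the pair calls were 10, adding Pgr for DOM and DOS and Vdr for DOM with MEHP and with BDB. Over all genes, the calls with that block were 263 for MEHP and 1128 for DINCH. Dim probes limited Nr3c2, Nr1h3 and Nr1i2 to detection counts.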
